A study of Homo sapiens with 5 samples.

Results

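The genes described here are 10 heat shock chaperones and co-chaperones, HSPH1, CHORDC1, HSPA8, HSP90AA1, HSP90AB1, DNAJB1, HSPD1, HSPE1, AHSA1 and HSF1, out of 26364 genes listed in each of 5 libraries of HT-29 tumours. HT-29 is a long-established cell line from a human colon cancer. Cells grown in complete medium were implanted under the skin of the back of female NOD SCID mice aged 5 weeks, an immunodeficient strain that lacks T and B cells, and the mice were reared for 2 weeks on 1 of 4 foods. The foods were without methionine, tryptophan and niacin (the combined omission, 1 library), without tryptophan and niacin (1 library), without methionine (2 libraries) and normal (1 library). The genes were chosen by measured values of these libraries, in the comparison of the 2 libraries from foods without tryptophan and niacin with the 3 libraries from foods with them. All values of that comparison are therefore a description of the 10 genes, with no test. All 10 passed the filter on low counts, as did 10005 genes in all.

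Heat shock proteins are chaperones that bind unfolded protein chains and let them fold or be handed on for degradation. HSP70 proteins work in a cycle in which J-domain proteins start ATP hydrolysis and exchange factors release the nucleotide, and HSP90 proteins take over partly folded clients with the help of co-chaperones. HSF1 is the transcription factor that raises many of these genes when unfolded protein accumulates, by binding heat shock elements, which are repeats of a short unit in alternating orientation. Tumour cells, those of the colon included, are known for high chaperone levels.

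The libraries were shallow, with totals between 433930 and 1088084 counts, so that a single count was worth 0.919 to 2.31 CPM (counts per 1000000 counts of the library) and counting error alone was 13.6% to 21.5% at 50 CPM. All 12 markers of HT-29 and colon epithelium were present in every library, at a summed 14200 to 16100 CPM. Of 8 fibroblast markers 5 were at 0 in all libraries, as were 5 of 6 endothelial markers, 5 of 5 erythroid markers and 4 of 8 myeloid markers, PTPRC and CSF1R among the last. The 8 myeloid markers summed to 2050 CPM in the combined omission, 2370 in the tryptophan/niacin-free library, 2690 and 3440 in the methionine-free replicates 1 and 2 and 2430 with normal food, and LYZ made up 97.4% to 98.7% of that sum in each library. The 8 skeletal muscle markers summed to 68.7 CPM in the tryptophan/niacin-free library and to between 1.15 and 2.69 CPM in the other 4. The part of either list in the results below was not tested. In methionine-free replicate 2 the 25% shortest transcripts (median 1502 bases) lay a median 0.38 on the log2 scale above their mean over the libraries and the 25% longest (median 6716 bases) at -0.33, while in the other 4 libraries both classes lay between -0.12 and 0.13. The sample titles came in 2 styles, a short one for the combined omission and normal food and a numbered one for the other 3 libraries, and what the styles stand for is not stated.

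HSPH1, the large HSP70 relative that exchanges nucleotide on HSP70 proteins and holds unfolded chains, had 329.5 CPM in the combined omission and 284 CPM in the tryptophan/niacin-free library, against 168 and 189 CPM in the methionine-free libraries and 153 CPM with normal food. Both libraries without tryptophan and niacin stood above all 3 with them. The means were 307 ± 32.5 CPM without tryptophan and niacin (SD, n = 2 libraries of different foods) and 169.7 ± 18.1 CPM with them (SD, n = 3). The ratio of summed counts, without over with, was 1.74, with a 95% exact interval of 1.49 to 2.02 that covers counting error only. The fitted log2 fold change was 0.83 (SE 0.27), and 156 of the 10005 genes tested, 1.56%, had one at least as high, HSPH1 itself included. Among the 759 genes at the CPM of HSPH1 or above, it was 1 of 6. In bulk tumours, fewer cells that hold an RNA and less of it per cell cannot be told apart.

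CHORDC1, an HSP90 co-chaperone with zinc-binding CHORD domains, was the lowest of the 10 in level. It had 48.4 CPM in the combined omission and 47.3 CPM in the tryptophan/niacin-free library, against 22.6 and 22.1 CPM in the methionine-free libraries and 16.5 CPM with normal food. These values rest on 21 and 29 counts without tryptophan and niacin, and on 12.5, 15 and 18 counts with them. The groups did not overlap, with means of 47.8 ± 0.801 CPM without (SD, n = 2) and 20.4 ± 3.36 CPM with (SD, n = 3). The ratio of summed counts was 2.35 (95% exact interval 1.54 to 3.6), and the log2 fold change of 1.25 (SE 0.37) was reached by 21 of the 10005 genes tested, CHORDC1 included. Among the 6675 genes at its CPM or above, 2 reached it, CHORDC1 included.

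HSF1, the regulator itself, lay the other way in these libraries. It had 91.0 CPM in the combined omission and 72.5 CPM in the tryptophan/niacin-free library, against 103 and 112 CPM in the methionine-free libraries and 115 CPM with normal food. Both values without tryptophan and niacin lay below all 3 with them, and the log2 fold change was -0.49 (SE 0.29).

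Of the 10 genes, 2 thus stood above without overlap (HSPH1 and CHORDC1), 1 stood below (HSF1) and 7 overlapped after TMM scaling. Among all genes tested, 10.0% stood above in the same way and 10.9% below. Nothing is read from this comparison of shares, because the rule that chose the genes used the same contrast. Over the 10 genes the median log2 fold change was 0.03, with 6 of 10 above 0, while over all genes it was -0.0059, with 49.3% above 0. In edgeR's quasi-likelihood test 0.00% of the genes passed an adjusted p under 0.05 in this contrast. At an unadjusted p under 0.05 there were 163 genes, and DESeq2 and limma-voom also called 0. edgeR called 20 genes with the combined omission left out, and 3 each with the tryptophan/niacin-free or the normal library left out.

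**Figure D1:**
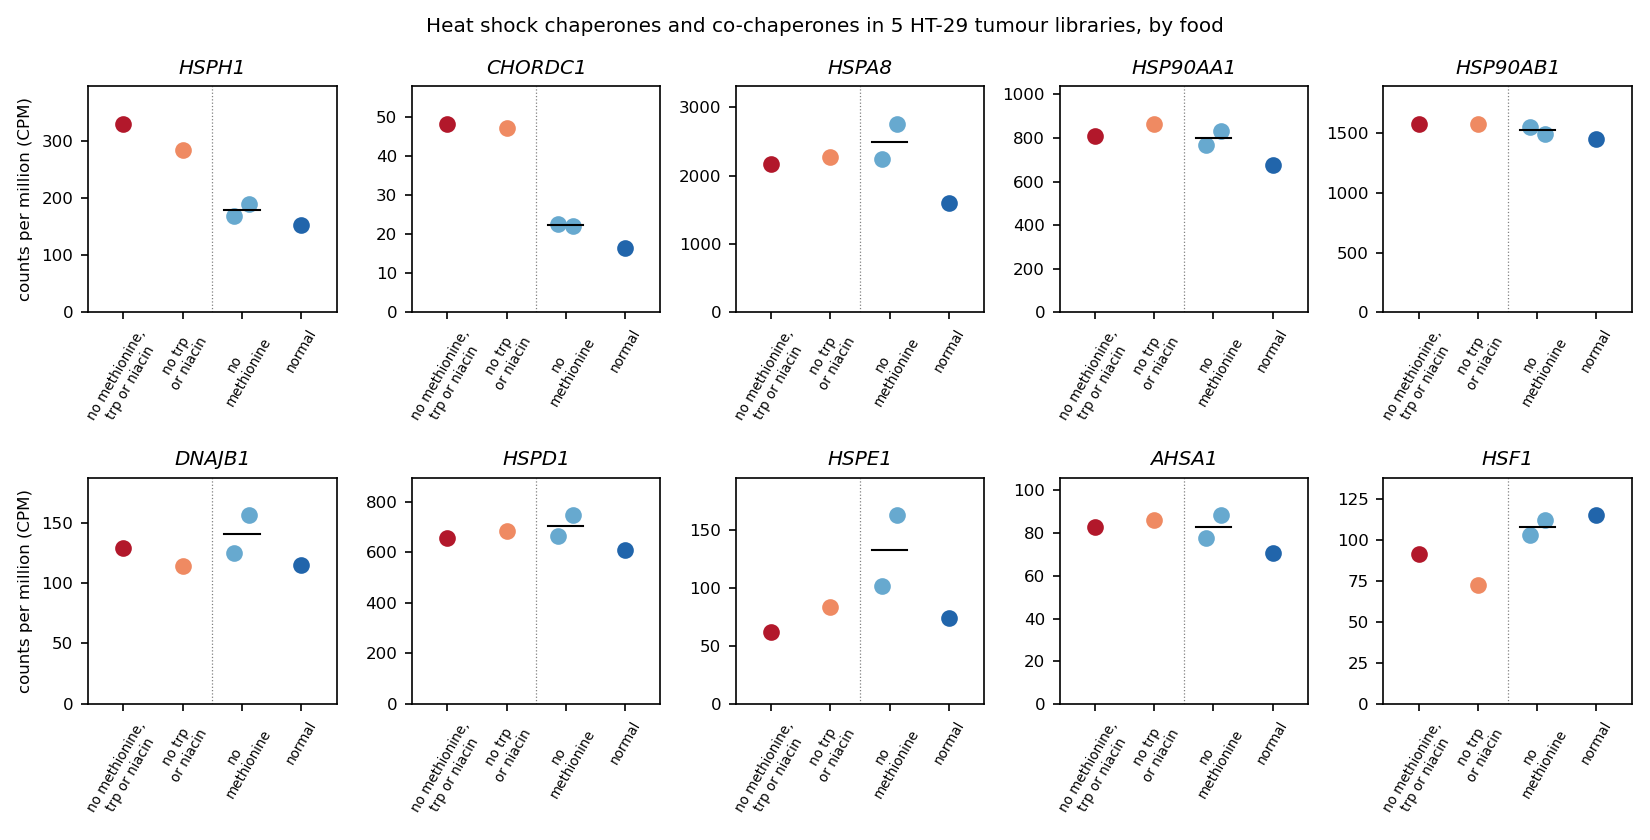
CPM of each of the 10 genes (vertical axis, from 0, own scale per panel) in each library, ordered by food: combined omission, tryptophan/niacin-free, methionine-free and normal. Each point is 1 library and the black bar is the mean of the methionine-free pair; the dotted line parts foods without tryptophan and niacin (left) from foods with them. HSPH1 and CHORDC1 are higher in both points on the left than in all 3 on the right, HSF1 is lower, and the other 7 overlap, HSP90AB1 only after TMM scaling.

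Within the 10 genes, the partners of HSPH1 in the HSP70 cycle, HSPA8 and DNAJB1, did not share its pattern. HSPA8, the constitutive HSP70 of the cytosol and the most abundant of the 10, had 2166 CPM in the combined omission and 2275 CPM in the tryptophan/niacin-free library, against 2235 and 2757 CPM in the methionine-free libraries and 1597 CPM with normal food. The normal library was the low one, and both libraries without tryptophan and niacin lay within the range of the 3 with them. DNAJB1, the J-domain protein that delivers clients to HSP70, had 129 and 114 CPM in the combined omission and the tryptophan/niacin-free library, against 125 and 156 CPM in the methionine-free libraries and 115 CPM with normal food. The log2 fold changes, without over with tryptophan and niacin, were 0.05 (SE 0.33) for HSPA8 and -0.14 (SE 0.29) for DNAJB1, so that the groups overlapped for both.

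Among the HSP90 genes of the 10, CHORDC1 likewise stood apart from HSP90AA1, HSP90AB1 and AHSA1. HSP90AA1, the stress-inducible cytosolic HSP90, had 809 and 865 CPM in the combined omission and the tryptophan/niacin-free library, against 769.6 and 834 CPM in the methionine-free libraries and 677 CPM with normal food. HSP90AB1, the constitutive form, had the narrowest range of all 10, with 1579 and 1581 CPM without tryptophan and niacin, against 1557, 1497 and 1457 CPM with them (methionine-free replicates first, then normal). Its plain CPM did not overlap between the groups, but after TMM scaling they did. AHSA1, the co-chaperone that speeds the ATPase of HSP90, had 83.0 and 86.4 CPM in the combined omission and the tryptophan/niacin-free library, against 77.7 and 88.4 CPM in the methionine-free libraries and 70.8 CPM with normal food. The log2 fold changes of these 3 genes ran from 0.02 for HSP90AB1 to 0.10 for HSP90AA1, with AHSA1 at 0.07, each smaller than its SE (0.29 to 0.30).

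HSPD1 and HSPE1 form the mitochondrial chaperonin, the barrel and its lid, and their genes lie head to head. HSPD1 had 657 and 683 CPM in the combined omission and the tryptophan/niacin-free library, against 665 and 747 CPM in the methionine-free libraries and 609.6 CPM with normal food, with full overlap. HSPE1 had 62.0 and 83.9 CPM without tryptophan and niacin, against 102 and 163 CPM in the methionine-free libraries and 73.8 CPM with normal food. The high library was methionine-free replicate 2, in which short transcripts stood high. HSPE1 had the shortest transcript of the 10 (950 bases). Its log2 fold change was -0.54 (SE 0.39), and -0.29 after a correction for transcript length. The read-through gene HSPE1-MOB4, which shares exons with HSPE1, had 19.9 and 39.5 unscaled counts in the combined omission and the tryptophan/niacin-free library. It had 42, 81.5 and 72.8 unscaled counts in methionine-free replicates 1 and 2 and normal food. Library totals ran from 433930 in the combined omission to 1088084 with normal food, so these counts do not compare levels. HSPE1 had counts with decimals in all 5 libraries, so its level is uncertain.

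Per length, the 10 genes spanned a wide range of levels. The median over the 5 libraries was 907 CPM per kb of transcript for HSPA8, 582 for HSP90AB1, 271 for HSPD1 and 239 for HSP90AA1, followed by 88.4 for HSPE1, 59.2 for AHSA1, 55.1 for DNAJB1, 48.1 for HSF1, 36.3 for HSPH1 and 8.51 for CHORDC1. HSPD1 overlapped with HSP90AA1 over the 5 libraries, AHSA1 with DNAJB1, DNAJB1 with HSF1 and HSF1 with HSPH1, so that the order of these neighbours is not resolved, while the others did not overlap with their neighbours. CHORDC1 was the last of the 10 in level in all 5 libraries.

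Heat shock elements lie upstream of many chaperone genes. The 250 bases before the start site are shown for the 2 genes that stood above, HSPH1 and CHORDC1, and for 2 abundant partners that did not, HSPA8 and HSP90AA1, to set their elements side by side. They are from RefSeq on GRCh38.p14 (the counts were made on hg19), 5′ to 3′ on the gene's strand, and capitals mark matches to a heat shock element of 2 alternating units, GAANNTTC or TTCNNGAA.
HSPH1, chr13:31162389-31162638, minus strand: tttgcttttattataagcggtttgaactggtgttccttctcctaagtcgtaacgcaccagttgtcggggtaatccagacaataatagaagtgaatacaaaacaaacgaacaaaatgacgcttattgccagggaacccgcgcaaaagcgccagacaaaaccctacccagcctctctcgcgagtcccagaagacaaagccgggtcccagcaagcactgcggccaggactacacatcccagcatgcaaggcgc
CHORDC1, chr11:90223050-90223299, minus strand: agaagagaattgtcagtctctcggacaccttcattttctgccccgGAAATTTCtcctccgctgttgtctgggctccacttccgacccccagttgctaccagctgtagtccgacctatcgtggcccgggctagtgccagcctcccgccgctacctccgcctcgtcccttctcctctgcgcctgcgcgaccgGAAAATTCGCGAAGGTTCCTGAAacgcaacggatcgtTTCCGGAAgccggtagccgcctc
HSPA8, chr11:123062137-123062386, minus strand: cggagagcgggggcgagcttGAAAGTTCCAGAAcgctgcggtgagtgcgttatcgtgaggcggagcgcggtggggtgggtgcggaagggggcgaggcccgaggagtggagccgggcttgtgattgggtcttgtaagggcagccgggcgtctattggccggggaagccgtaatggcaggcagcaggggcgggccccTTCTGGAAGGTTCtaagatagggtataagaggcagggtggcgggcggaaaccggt
HSP90AA1, second of 2 start sites, chr14:102087045-102087294, minus strand: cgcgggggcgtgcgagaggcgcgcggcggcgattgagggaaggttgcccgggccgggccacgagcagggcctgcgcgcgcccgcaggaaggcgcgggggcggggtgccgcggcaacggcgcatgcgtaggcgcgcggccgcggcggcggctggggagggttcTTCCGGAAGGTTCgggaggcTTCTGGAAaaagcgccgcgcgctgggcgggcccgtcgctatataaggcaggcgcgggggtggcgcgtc

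The HSPH1 window held no match. The CHORDC1 window held 6 matches to the 2-unit forms, 4 of them overlapping in 1 run between -60 and -38 bases from the start, and 3 overlapping matches to the 3-unit form, GAANNTTCNNGAA or its second-strand form TTCNNGAANNTTC. HSPA8 held 2 matches of 3 units, at -230 to -218 and at -55 to -43, and HSP90AA1 held 1 at its second start site, at -88 to -76. Both strands were searched, over windows of 250 bases before and 50 after each start, and each 3-unit match contains 2 overlapping matches of 2 units. Of 35116 RefSeq windows 6.77% held GAANNTTC, 7.74% held TTCNNGAA, 13.5% held either and 0.49% held the 3-unit form. At least 1 window was at hand for 9 of the 10 genes, 16 windows in all. A gene was counted if any of its windows held a match, while the shares above are per window, so they are unlike measures. The 3-unit form was found for 5 of the 9 genes, CHORDC1, HSPA8, HSP90AA1, HSP90AB1 and HSPD1, only 2-unit forms for DNAJB1, and neither for HSPH1, HSPE1 and AHSA1. The 3-unit matches of HSPD1, at -245 to -228 of its second start site, lie between the start sites of HSPD1 and HSPE1. They fall outside the HSPE1 window, so the lack of a match for HSPE1 depends on the window chosen. HSPH1 and CHORDC1 thus differed in their matches, and HSPA8 and CHORDC1 both held the 3-unit form. Only exact matches were searched, and the part of these elements in the RNA levels was not tested. A match is a stretch of letters in the reference, not a measured binding site.

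**Figure D2:**
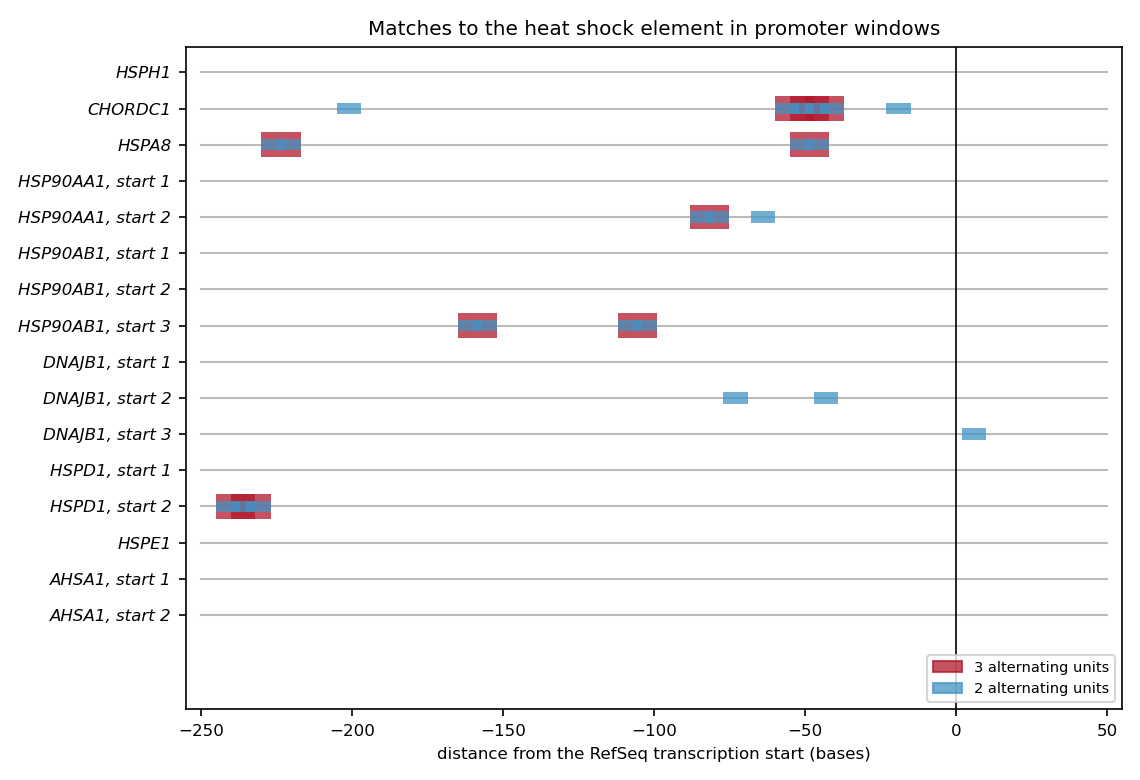
Matches to the heat shock element in the 16 windows of 9 genes, by distance from the RefSeq start site in bases (horizontal axis). Tall red blocks are matches of 3 alternating units and short blue blocks matches of 2; grey lines are the windows. CHORDC1 has its run of 3-unit matches between -60 and -38, and the line of HSPH1 is empty.

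Within each style of sample title 1 library without tryptophan and niacin could be set against food with them, but methionine differed too. The combined omission also lacked the methionine that normal food held, and the tryptophan/niacin-free food held the methionine that methionine-free food lacked, so that neither comparison isolates tryptophan and niacin. Between the short titles, the combined omission against normal food, HSPH1 had a count ratio of 2.15 (95% exact interval 1.71 to 2.7) and CHORDC1 one of 2.91 (1.48 to 5.8). Between the numbered titles, tryptophan/niacin-free against methionine-free food, the ratios were 1.46 (1.19 to 1.79) for HSPH1 and 2.0 (1.14 to 3.51) for CHORDC1. Both genes were singled out after their values were seen, because both libraries without tryptophan and niacin stood above the other 3. That fixes the direction of each of these ratios. The genes were chosen by the same contrast in the same libraries, so the sizes of the ratios are not free of the choice either. The ratios are therefore a description, with no test. The intervals cover counting error and not the spread between mice.

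For HSPA8 the same pair of comparisons gave opposite directions, 1.35 (1.25 to 1.46) for the combined omission against normal food and 0.835 (0.784 to 0.89) for tryptophan/niacin-free against methionine-free food. HSF1 was lower in both, with a ratio of 0.799 (0.545 to 1.15) between the short titles, where the interval holds 1, and 0.615 (0.427 to 0.871) between the numbered ones. DNAJB1 and HSPE1 had ratios of 0.744 (0.556 to 0.987) and 0.583 (0.418 to 0.8) between the numbered titles, while between the short titles their intervals held 1. Over the 10 genes, 8 of 10 log2 differences were above 0 between the short titles (median 0.19) and 3 of 10 between the numbered titles (median -0.10). For all genes tested the shares above 0 were 48.4% and 50.6%.

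**Figure D3:**
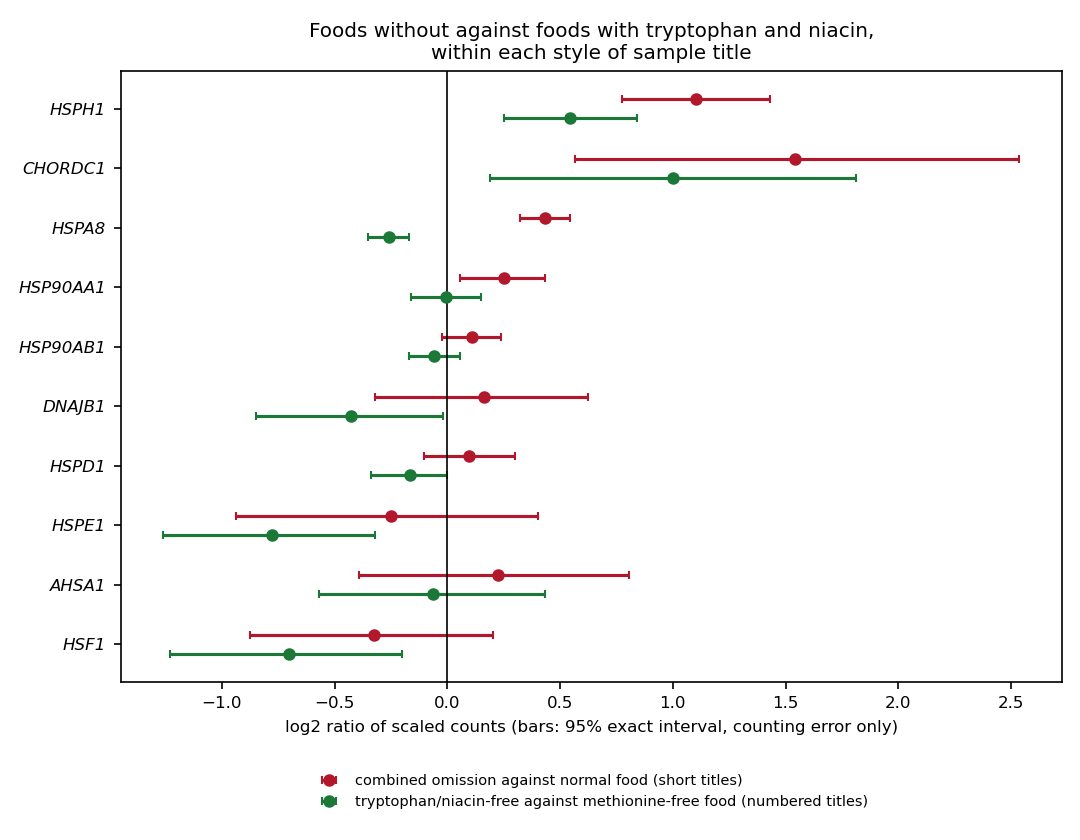
log2 ratio of scaled counts (horizontal axis) for each of the 10 genes, for the combined omission against normal food (red, short titles) and for tryptophan/niacin-free against methionine-free food (green, numbered titles). Points are ratios and bars 95% exact intervals, which cover counting error only. HSPH1 and CHORDC1 lie right of 0 in both, and HSPA8 lies on opposite sides.

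The single libraries were also read with a size rule of at least 2-fold. In the tryptophan/niacin-free library against normal food, CHORDC1 was past it (log2 difference 1.32) and HSPH1 was not (0.84), with 1.18% of all genes past it. In the combined omission against normal food, HSPH1 (1.09) and CHORDC1 (1.39) were, with 1.27% of all genes. In the combined omission against methionine-free food no member was at least 2-fold higher, against 5.12% of all genes, with CHORDC1 at 0.98 and HSPH1 at 0.81, while HSPE1 was at -1.08. In tryptophan/niacin-free against methionine-free food none was either, against 2.63%, with CHORDC1 at 0.92 and HSPH1 at 0.56. These comparisons share libraries with each other and with the contrast that chose the genes, and nothing is read from their counts.

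Leaving out methionine was a contrast that the choice of the genes did not use. No member passed in foods without against foods with methionine: edgeR called 0 of the 10 (adjusted p = 0.9998 for each), as it called 0.00% of all genes, and 0 of the 10 had an unadjusted p under 0.05. DESeq2 and limma-voom called 0 genes as well, and 173 of all genes were under an unadjusted 0.05 in edgeR. With the combined omission left out 25 genes passed, without the tryptophan/niacin-free library 20 and without the normal library 6. The fitted log2 fold changes of the 10 were all above 0, from 0.09 for HSP90AB1 to 0.41 for HSPE1 (SE 0.38), with a median of 0.22, while 49.4% of all genes tested were above 0, with a median of -0.0048. HSPH1 and CHORDC1 were both at 0.28 (SE 0.27 and 0.37).

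That common sign was not seen without the normal library, which had the lowest TMM-scaled value in 7 of the 10 genes, as it did in 15.0% of all genes. Without the normal library, the methionine term compares only the combined omission with the tryptophan/niacin-free library, and the methionine-free pair no longer enters it. In that different comparison of lone libraries the median over the 10 was 0.0066, and HSPA8, HSP90AA1, HSPD1, HSPE1 and AHSA1 were below 0. Methionine-free replicate 2 also exceeded replicate 1, on the same food, in all 10 genes, by a median of 0.28 on the log2 scale against 0.0072 over all genes. The largest of these gaps between replicates was that of HSPE1 (0.78) and the smallest that of HSP90AB1 (0.06). The part of the short transcripts of that library in this was not tested.

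Methionine-free against normal food, in the model with 1 mean per food, gave 0.230% of all genes past the threshold (23 lower, 0 higher) and 0 of the 10, with adjusted p between 0.594 and 0.997. The lowest was that of HSPE1, with a log2 fold change of 0.92 (SE 0.42), 1 of the 10 with an unadjusted p under 0.05 in edgeR (0.0277), as were 7.68% of all genes. The value was 0.46 without methionine-free replicate 2, 1.26 without replicate 1 and 0.53 with the correction for transcript length. HSPE1 had 132.5 ± 43.0 CPM in methionine-free libraries (SD, n = 2) and 73.8 CPM in the normal library. HSPA8 followed with 0.71 (SE 0.63), from 2496 ± 369 CPM (SD, n = 2) and 1597 CPM. HSPH1 was at 0.29 and HSF1 at -0.03 in the same comparison. Of the 10 genes 9 were above 0, with a median of 0.31.

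The interaction asks whether the effect of leaving out methionine differed between foods without and with tryptophan and niacin. It called 0.430% of all genes and 0 of the 10, with adjusted p between 0.775 and 0.998. HSPE1 had the largest value, -1.33, with an unadjusted p of 0.0499 in edgeR and an adjusted p of 0.775, where 6.45% of all genes were under an unadjusted 0.05. It was -0.87 without methionine-free replicate 2 and -1.67 without replicate 1. HSPH1 was near 0 at -0.04. The interaction and the title styles follow the same split of the libraries and cannot be told apart. In these 3 comparisons, no member passed under the other scalings, filters and tools or the length correction. The lowest adjusted p among them was 0.596, for HSPE1 in methionine-free against normal food in edgeR with DESeq2 size factors. For methionine no member passed with each library left out in turn either. Without the combined omission or the tryptophan/niacin-free library this repeats methionine-free against normal food and is no separate check. Leaving out a methionine-free library in the other 2 comparisons left no spread between replicates and so no test.

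The wider chaperone network was taken as 8 lists with 135 genes outside the 10, of which 112 were tested. In foods without against foods with tryptophan and niacin 0 of the 112 passed edgeR's test, 1 had an unadjusted p under 0.05 and higher values (EP300) and 0 had lower ones. Their median log2 fold change was -0.02, from -0.79 to 0.76, with 53 of 112 above 0. Both libraries without tryptophan and niacin stood above the other 3 in 8 of the 112 genes and below them in 11, where 10.0% and 10.9% of all genes tested did so, and neither count exceeded that background. No gene of these lists passed in the other 3 comparisons either.

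Known HSF1 targets outside the 10 had a median log2 fold change of 0.11 over 18 tested of 22 genes, with 10 of 18 above 0. HSPA1A, the stress-inducible HSP70, had 361 and 254 CPM in the combined omission and the tryptophan/niacin-free library, against 181 and 191 CPM in the methionine-free libraries and 241 CPM with normal food. Its near-identical copy HSPA1B had 393 and 262 CPM without tryptophan and niacin, against 220.4, 186 and 258 CPM with them, and the counting may have split reads between the pair. After TMM scaling HSPA1A stood above without overlap, as did 10.0% of all genes tested, and HSPA1B overlapped. The log2 fold changes were 0.52 (SE 0.29) for HSPA1A and 0.50 (SE 0.29) for HSPA1B, and neither passed. At the other end of the list, CACYBP, which binds HSP90 and a ubiquitin ligase, was at -0.60 (SE 0.38) and DEDD2, a death effector domain protein, at -0.56 (SE 0.33).

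The HSP70 family with its J-domain proteins and exchange factors, the group of HSPH1, HSPA8 and DNAJB1, had a median of -0.01 over 28 tested of 35 genes. After HSPA1A and HSPA1B at the high end, its low end was DNAJC9, a J-domain protein that also binds histones, at -0.63 (SE 0.38), and HSPBP1, an HSP70 exchange factor, at -0.31 (SE 0.35). In 4 of the 28 genes tested both libraries without tryptophan and niacin stood above the other 3, and in 3 below. The shares among all genes tested were 10.0% and 10.9%. The HSP90 co-chaperones, the group of CHORDC1 and AHSA1, had a median of -0.08 over 18 tested of 19 genes. UNC45A, which folds myosin together with HSP90, had 122 and 83.1 CPM without tryptophan and niacin, against 74.1, 53.0 and 69.8 CPM with them (0.58, SE 0.30), and PTGES3, the p23 co-chaperone, was at -0.24 (SE 0.30). AHSA2, a relative of AHSA1, was at 0.39 (SE 0.41).

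Among 7 tested regulators and relatives of HSF1, EP300, the acetyltransferase that modifies HSF1, had 127 and 137 CPM in the combined omission and the tryptophan/niacin-free library, against 63.2 and 43.5 CPM in the methionine-free libraries and 108 CPM with normal food (log2 fold change 0.76, SE 0.31, adjusted p = 0.9998 in edgeR). HSBP1, a small protein that binds HSF1, was at -0.33 (SE 0.39) and DAXX, which is known to assist HSF1, at -0.38 (SE 0.29). The TRiC chaperonin and prefoldin, which fold actin and tubulin, had a median of -0.04 over 16 genes, from VBP1 at -0.50 and CCT4 at -0.44 to CCT6A at 0.13 among those with a mean of at least 50 CPM. Mitochondrial chaperones and proteases had a median of 0.03 over 15 tested of 17, with GRPEL1 at 0.14, DNAJA3 at 0.18, YME1L1 at -0.28 and AFG3L2 at -0.10. Chaperones of the endoplasmic reticulum had a median of 0.06 over 22 genes, with HYOU1 at 0.33, DNAJB11 at 0.35, CALR at -0.11 and PDIA3 at -0.11. Of 11 small heat shock proteins 2 were tested, among them HSPB1 at -0.13.

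**Figure D4:**
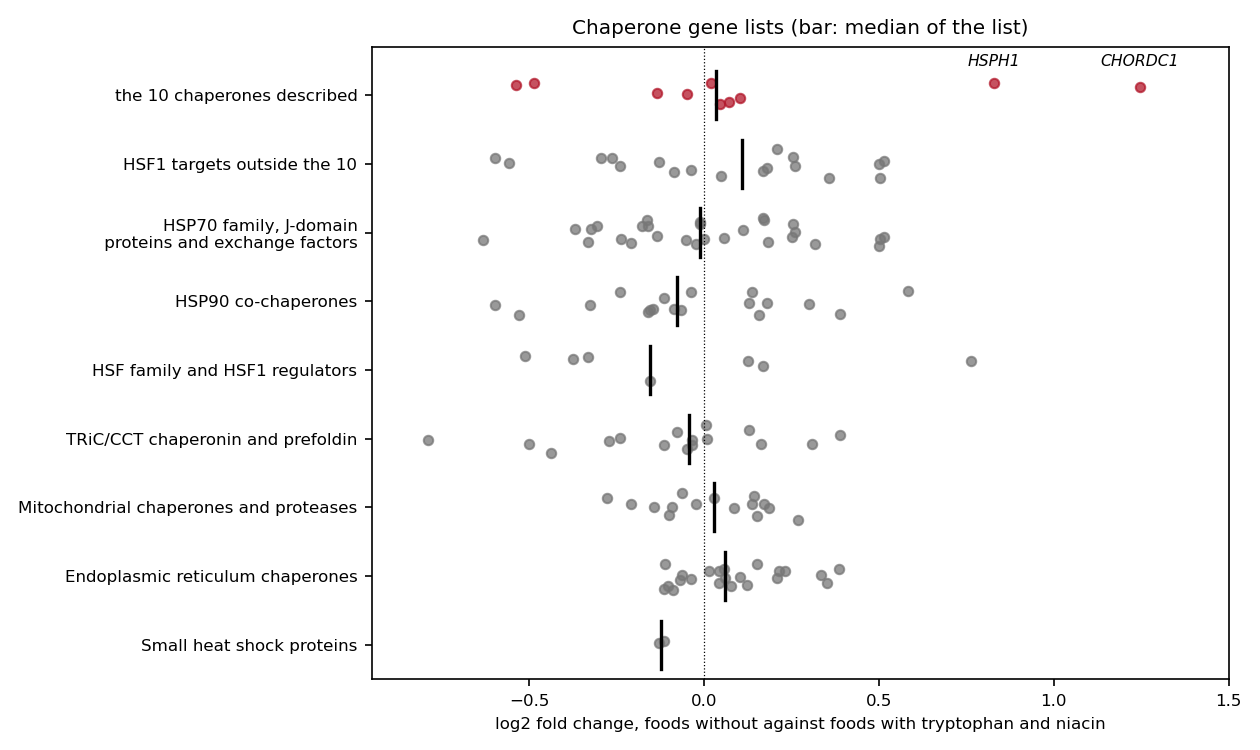
log2 fold change of foods without against foods with tryptophan and niacin (horizontal axis) for each tested gene of the 8 chaperone lists (grey points) and for the 10 genes described (red points); the black bar is the median of a list. HSPH1 at 0.83 and CHORDC1 at 1.25 lie right of all grey points, of which the highest is at 0.76. The 10 genes were chosen by this contrast, so nothing is read from that position.

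Immediate early genes, which respond to handling and stress of tissue within minutes, had a median of -0.10 over 14 tested of 16 genes, with 5 of 14 above 0. EGR1, a transcription factor of that group, had 34.6 CPM in the combined omission and 122 CPM in the tryptophan/niacin-free library, against 50.6 and 41.3 CPM in the methionine-free libraries and 31.2 CPM with normal food. MYC was at 0.28 (SE 0.27), JUND at -0.61 (SE 0.35) and IER3 at -0.29 (SE 0.35). The ends of the list were FOSL1 at 1.02 (SE 0.37) and DUSP1 at -1.02 (SE 0.49), with means of 42.5 and 20.3 CPM. In 2 of the 14 genes, FOSL1 among them, both libraries without tryptophan and niacin stood above all those with them. In 2, DUSP1 among them, they stood below, where 10.0% and 10.9% of all genes tested did so. The part of handling in the chaperone values was not tested.

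The genes most like the mean profile of the 10 over the 5 libraries were LSM4, with a root mean square log2 difference of 0.03, then GIPC1, H2AFJ, CCT6A, SMARCD2 and LGMN, with differences up to 0.04. LSM4 had 131 and 137 CPM in the combined omission and the tryptophan/niacin-free library, against 125 and 138.5 CPM in the methionine-free libraries and 107 CPM with normal food. The mean profile is thus low in the normal library and does not carry the pattern of HSPH1 and CHORDC1. By the same measure, the genes nearest to the mean profile of HSPH1 and CHORDC1, a pair singled out after its values were seen, were TNS4 (0.08), PRKAB1 (0.16), POGK (0.17), QTRTD1 (0.18), SPRY4 (0.18) and CDC42EP1 (0.19). TNS4, a focal adhesion protein, had 117.5 and 109 CPM without tryptophan and niacin, against 52.4, 57.5 and 51.5 CPM with them. The likeness is over 5 libraries and says nothing of shared control.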

How the data were processed

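The deposited files hold expected counts, that is, estimated counts per gene symbol that need not be whole: 15.2% to 17.6% of values above 0 had decimals, and all were rounded to whole numbers before tests. Per the submitters' processing notes, reads went through TopHat2 2.1.1 and Bowtie2 2.2.8 on hg19, with featureCounts of Subread 2.0.0 and SAMtools 0.1.18 also named. The kit was stranded, per the labels' protocols. Not given in the sources used here were the annotation, the strand setting, how reads with several positions were handled, and any removal of mouse reads.

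CPM are counts per 1000000 counts of the library total. filterByExpr on the 4 foods kept 10005 genes and removed 16359. The test was edgeR 4.0.16's quasi-likelihood F-test in its legacy form in R 4.3.3 (limma 3.58.1), with TMM factors, p-values adjusted by Benjamini-Hochberg over every gene tested and a threshold of 0.05; it was tested on simulated data. An additive model of both omissions, with 2 residual degrees of freedom and a biological coefficient of variation of 0.227, served for the tryptophan/niacin and methionine contrasts. A model with 1 mean per food, whose 1 residual degree of freedom came from the methionine-free pair and whose coefficient was 0.207, gave methionine-free against normal food and the interaction. Lone libraries are assumed to vary like that pair. In the model with 1 mean per food the prior degrees of freedom were infinite, so the spread of each gene was taken wholly from the trend over genes. A gene's own gap between the methionine-free pair therefore did not by itself set its p-value. log2 CPM used a prior count of 2. Nothing says that this pair came from separate mice, so p-values measure a spread between samples that may be technical. The residual of the additive model also holds the interaction of both omissions. Its p-values therefore do not measure the spread between replicates alone. Intervals are exact conditional binomial and cover counting error only.

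Transcript lengths are from GENCODE and were had for 95.8% of the tested genes. Alternatives were library totals, DESeq2 1.42.0 and its size factors, no filter, limma-voom, a correction for transcript length, each library left out and, added after seeing the data, the bias-adjusted quasi-likelihood form. The 10 genes and all lists were chosen with earlier results of these data known. Outside the 10, genes were named as the 2 highest and 2 lowest log2 fold changes of each list in the tryptophan/niacin contrast at a mean of at least 50 CPM, and the 6 most like the mean profile. FOSL1 and DUSP1, with lower means, were added as the ends of the immediate early list. Promoter windows are from RefSeq.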

Additional observations from a re-analysis of the deposited data

How the results depend on the processing

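In foods without against foods with tryptophan and niacin, the log2 fold change of HSPH1 lay between 0.74 and 0.91 and that of CHORDC1 between 1.06 and 1.46 over all alternatives. The number of genes past the threshold stayed at 0 under every other tool, scaling and filter and ran from 0 to 20 when a library was left out (20 without the combined omission). The median over the 10 genes ran from -0.13 to 0.20, both when a library was left out. HSPE1 was at -1.17 without the normal or the tryptophan/niacin-free library and at 0.16 without the combined omission, and HSPA8 was at 0.47 without the combined omission. Leaving out the normal or the tryptophan/niacin-free library turns the contrast into the combined omission against methionine-free food. Leaving out the combined omission turns it into tryptophan/niacin-free against normal food.

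In foods without against foods with methionine, the number of genes ran from 0 to 25 when a library was left out. Over the same settings HSPA8 ran from -0.035 (without normal) to 0.71, HSP90AA1 from -0.062 to 0.31, HSPD1 from -0.020 to 0.28, HSPE1 from -0.409 to 0.92 and AHSA1 from -0.022 to 0.30, each lowest without the normal library and highest without the combined omission or the tryptophan/niacin-free library, which gave the same values to 2 decimals. HSF1 ran from -0.027 (without the combined omission or the tryptophan/niacin-free library) to 0.40 (without normal). With the combined omission or the tryptophan/niacin-free library left out, the methionine term is methionine-free against normal food, so their agreement is built in. Without the normal library it is the combined omission against tryptophan/niacin-free food. Leaving out any of these libraries thus gives another comparison, not a check on the same one.

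DESeq2 called 1 gene in methionine-free against normal food and 2 in the interaction, and the length correction 2 and 20, against 23 and 43 in edgeR. The causes were not tested. No paired analysis was possible because the labels give no replicate numbers shared between foods. At 50 CPM counting error alone, as an SD, was up to 21.5% of a single value. At 20 CPM, close to CHORDC1 on foods with tryptophan and niacin, it was up to 33.9%. A difference between libraries carries the error of each, so differences of that size, and somewhat larger ones, are not resolved at these levels. More abundant genes had a smaller counting error, as HSPA8 with its ratio of 0.835 (0.784 to 0.89) in tryptophan/niacin-free against methionine-free food.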
